A study of Arabidopsis thaliana with 12 samples.

Results

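The genes described here include carriers of metal ions and other cations, ferric reductases and proteins with a heavy-metal-associated domain. A maker of a metal ligand, an iron store, and enzymes that hold copper or iron are also among them. All are genes that the array annotation ties to metals, seen here in Arabidopsis roots exposed to gold. They were taken by words in the deposited descriptions (heavy metal, metal transport, metal ion, zinc transporter, ferric, ferritin, nicotianamine, metallothionein, and cation, iron or copper as whole words), with AT1G29000 and AT5G48290 included by locus. This gave 31 genes of the 2762 in the deposited gene-level and exon-level tables. All 31 are in the exon-level table, with 56 listed exons, and 7 are in the gene-level table as well.

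Roots of Col-0 seedlings 12 days old, grown hydroponically in MS medium, were kept for 12 h in a 10 ppm gold solution (AuCl4-) at pH 4.2 without nutrients, and control roots were kept in distilled water of the same pH. Both groups thus lacked medium during the exposure, and many seedlings were pooled in each replicate. Each group has 3 biological replicates on AraGene-1_0-st arrays, and the 12 samples are these 6 arrays summarized by gene and again by exon. The values analysed are bi-weight averages, in which an array far from the others in its group counts for less, on the log2 scale. Single arrays were not analysed here. Therefore no spread between replicates and no test stands beside a difference, and whether it exceeds that spread cannot be read from these averages.

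By the study's methods, features were kept at a change of more than 2-fold and an unadjusted p-value under 0.05. The smallest difference is 1.0 on the log2 scale in each table. Of the 800 genes and 4977 exons listed, 96 and 77 carry no chromosome, and none of these is a metal gene. A metal gene is therefore known here only because it was listed, and a gene or exon outside the tables has no value. The organ could not be checked for the same reason: of 7 root markers 2 are listed and of 5 leaf markers 1, each through an exon alone. The root markers, COBL9 and EXPA7 of root hairs, were lower in gold-treated roots, by -1.48 and -1.01 on the log2 scale, and the leaf marker RCA was higher, by 1.03. Their part in the differences of the metal genes was not tested. In whole roots, fewer cells of a type and less RNA per cell cannot be told apart.

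Plants take up iron, zinc, manganese and copper through a small set of membrane proteins. In Arabidopsis, ferric iron is first reduced at the root surface by ferric reductases of the FRO family, and divalent metals then enter through carriers of the ZIP and NRAMP families. Inside the cell, metals are kept in solution by ligands such as nicotianamine and by small chaperones whose heavy-metal-associated domain binds the ion through cysteines, and the excess is moved into the vacuole or stored in ferritin.

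At the gene level 4 of the 7 metal genes were higher in gold-treated roots and 3 were lower. Over all 800 genes listed there the share that was higher was 65.4%. The 4 are the copper amine oxidase AT4G12290, the antiporter CHX17, the carnitine carrier OCT1 and the heavy-metal-associated domain protein AT1G29000. The 3 are the nicotianamine synthase NAS1, the heavy metal transport/detoxification domain protein AT5G48290 and the iron-binding oxidoreductase AT3G46490. Their differences were small for this table: the median size was 1.09 on the log2 scale, or 2.13-fold, beside 1.3, or 2.46-fold, over all listed genes. The averages lay 3-fold or more apart in 1 of the 7, AT4G12290, and in 28.8% of all listed genes. These shares describe the listed genes and were not tested.

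**Figure D1:**
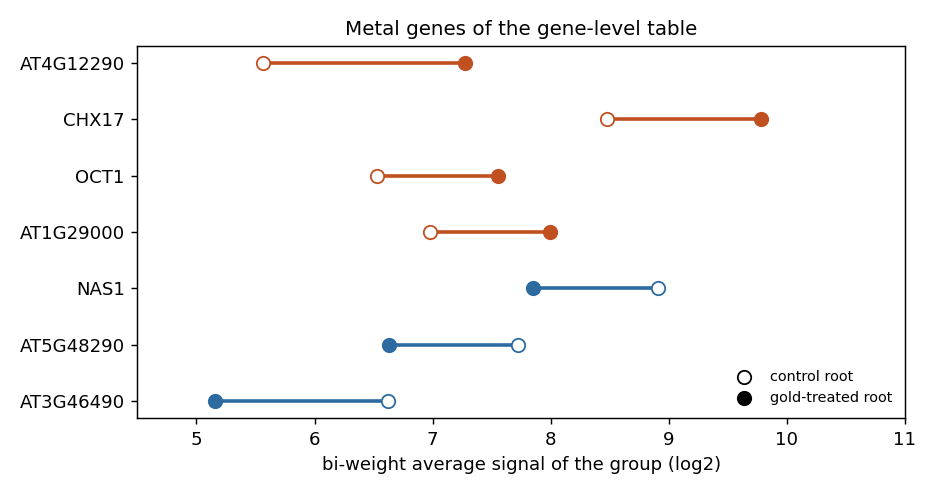
Group average signals (log2) of the 7 metal genes in the gene-level table; open circles are control roots, filled circles gold-treated roots, orange marks genes higher in gold and blue genes lower in gold. Each point is the authors' average of 3 arrays without an error bar, and AT4G12290 has the longest line, from 5.56 to 7.27.

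With the words used here, the metal genes were split nearly evenly at the exon level. Of their 56 listed exons 27 were higher in gold-treated roots and 29 lower, beside 54.6% higher among all 4977 listed exons. Exons of one gene share their transcript, so genes were also counted: all listed exons were higher in 14 of the 31 genes and lower in 16, and the remaining gene, IREG2, had both. Among all 2740 genes of the exon-level table, 49.6% had only higher exons. The share of metal genes absent from the gene-level table was 24 of 31, beside 71.6% for the whole table, and 17 of 31 had a single listed exon, beside 66.2%. Differences of 3-fold or more were found in 6 of the 56 exons, beside 31.8% of all listed exons, and those 6 belong to AT4G12290, AT3G46490, AT5G48290 and AT5G52710. The median size of an exon difference was 1.205 on the log2 scale in the metal genes and 1.33 over all listed exons.

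**Figure D2:**
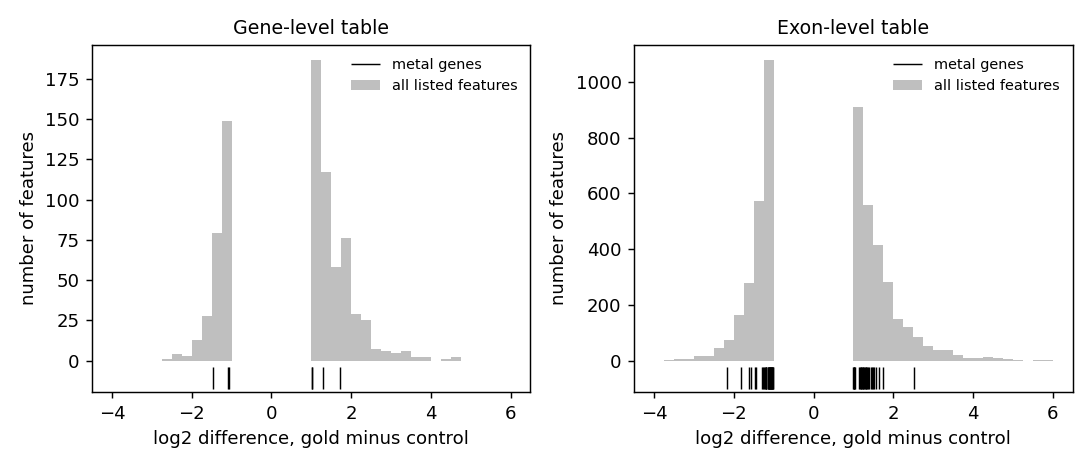
Number of listed genes (left) and exons (right) by log2 difference, gold-treated minus control roots; the ticks under the bars are the metal genes. The empty middle is the authors' 2-fold filter, and the ticks lie mostly near it, with the outermost exons at 2.51 and -2.18.

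The 7 metal genes of the gene-level table hold 21 of the listed exons, and each of these exons has the direction of its gene. The other 24 genes hold 35 exons, of which 13 were higher and 22 lower. Over all genes absent from the gene-level table, 42.0% of the exons were higher. Among these 24 genes, 10 had only higher exons and 13 only lower ones, beside 42.9% with only higher exons over all such genes, so the metal genes lay near the table as a whole. For 16 of them the listing rests on 1 exon, which says nothing of the rest of the transcript.

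**Figure D3:**
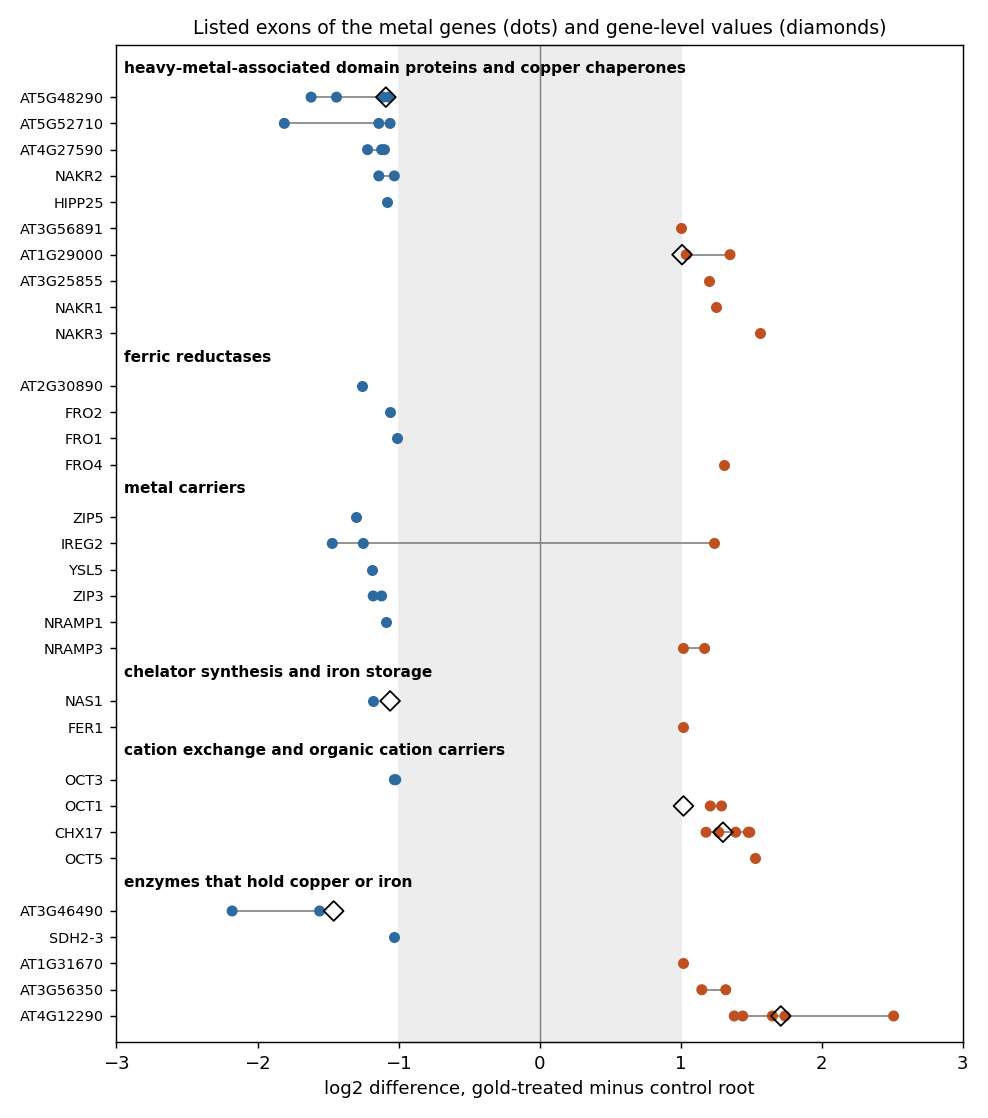
Log2 difference (gold-treated minus control roots) of every listed exon of the 31 metal genes, grouped by role; dots are exons, diamonds the gene-level value where one is listed, and the grey band is the range the filter left out. Most genes have all their dots on one side, and IREG2 has dots on both sides, from -1.47 to 1.24.

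The largest group, with 10 genes and 19 listed exons, consists of heavy-metal-associated domain proteins and copper chaperones. Such proteins are known for binding metal ions and passing them on inside the cell, which was not tested here for the 10 genes. By gene, 5 had only higher and 5 only lower exons, beside 49.6% with only higher exons over the table. By exon, 6 were higher and 13 lower, beside 54.6% higher over the table. Of the lower exons 4 are from AT5G48290 and 3 each from AT5G52710 and AT4G27590. AT1G29000, on chromosome 1, had a gene-level log2 signal of 6.98 in control roots and of 7.99 after gold, which is 2.01-fold higher. Its exons went from 7.03 to 8.38 and from 7.43 to 8.47.

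AT5G48290, on chromosome 5, went the other way, from 7.72 in control roots to 6.63 after gold at the gene level, 2.13-fold lower. All 4 of its listed exons were lower, by 2.1-fold in the brightest and 3.07-fold in the dimmest. Its exon signals in control and gold-treated roots were 10.09 and 9.02 for the first of these and 6.11 and 4.49 for the second. Since different probes respond differently, such levels are compared between groups and not between exons. The size of the difference nevertheless varied by 0.55 on the log2 scale within this gene.

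AT5G52710, described as a copper transport family protein, is listed through 3 exons and not at the gene level. Their signals were 10.77, 8.67 and 6.91 in control roots and 9.71, 7.53 and 5.1 in gold-treated roots. All 3 exons were lower in gold, and the last, 3.51-fold lower, had the largest difference of the group. AT4G27590 was also lower in 3 exons, by 2.14- to 2.33-fold, with control signals of 3.65 to 6.37. The exons that went from 3.65 to 2.43 and from 5.47 to 4.37 had low signals, with both averages under 6.

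The 3 relatives named for SODIUM POTASSIUM ROOT DEFECTIVE did not share a direction. NAKR1, a protein of phloem companion cells that affects sodium and potassium content, had an exon at 9.4 in control and 10.65 in gold-treated roots, 2.38-fold higher. NAKR3 had an exon that was 2.95-fold higher, from 3.71 to 5.27, a low signal in both groups. Both listed exons of NAKR2 were lower, by 2.2-fold from 6.75 to 5.61, and by 2.04-fold from 3.99 to 2.96, also a low signal. NAKR2 and NAKR3 carry the description of a chloroplast-targeted copper chaperone in the array annotation.

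The remaining members of this group are each listed through 1 exon. HIPP25, a heavy-metal-associated isoprenylated plant protein, was 2.11-fold lower in gold-treated roots, from 4.95 to 3.87. AT3G25855 was 2.3-fold higher at low signals, 2.58 and 3.78. AT3G56891, described as a metal ion binding protein, went from 6.32 to 7.32, at the 2-fold limit of the table.

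Ferric reductases are listed through 1 exon each and through no gene-level value. FRO2, the main ferric chelate reductase of the root surface in iron uptake, had an exon at 3.92 in control roots and at 2.86 after gold. Its neighbour on chromosome 1, FRO1, went from 5.33 to 4.32. These are 2.08- and 2.01-fold lower. AT2G30890, a protein of the cytochrome b561 and ferric reductase family, was 2.39-fold lower, from 6.12 to 4.86. FRO4, a reductase known for its part in copper uptake, was 2.48-fold higher, from 3.41 to 4.72. Both averages were under 6 in FRO1, FRO2 and FRO4, and this was the case for 15 of the 56 exons of metal genes, beside 22.3% of all listed exons. How far such low signals stand above the background of the array was not tested.

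Carriers of metal ions number 6, and none is in the gene-level table. By gene, 4 had only lower exons, NRAMP3 had only higher ones and IREG2 had both. Over all genes absent from the gene-level table, 42.9% had only higher exons. ZIP3, a zinc importer of the ZIP family, had exons at 10.09 and 8.76 in control roots and at 8.91 and 7.64 in gold-treated roots. Both were lower in gold, by 2.27- and 2.17-fold. The exon of ZIP5, of the same family, went from 7.43 to 6.13, 2.46-fold lower.

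The NRAMP carriers differed in direction. NRAMP1, which takes up manganese at the root plasma membrane and also carries iron, had an exon at 9.56 in control and 8.47 in gold-treated roots, 2.13-fold lower. NRAMP3, which releases iron and manganese from the vacuole, was higher in both listed exons, from 8.91 to 9.93 and from 7.42 to 8.59. These are differences of 2.03- and 2.25-fold. Whether the difference between gold-treated and control roots was itself unlike in these genes was not tested.

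IREG2, also called ferroportin 2, loads metals such as nickel and cobalt into the vacuole of root cells. It was the only metal gene with exons in both directions, 1 of the 14 with 2 or more listed exons, beside 2.91% of such genes in the table. An exon was 2.36-fold higher, from 4.15 to 5.39. The other two were 2.77- and 2.38-fold lower, from 7.95 to 6.48 and from 6.93 to 5.68. The higher exon had both averages under 6 and the lower ones did not. YSL5, described as a putative metal-nicotianamine transporter, was 2.28-fold lower in its exon, from 6.87 to 5.68.

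**Figure D4:**
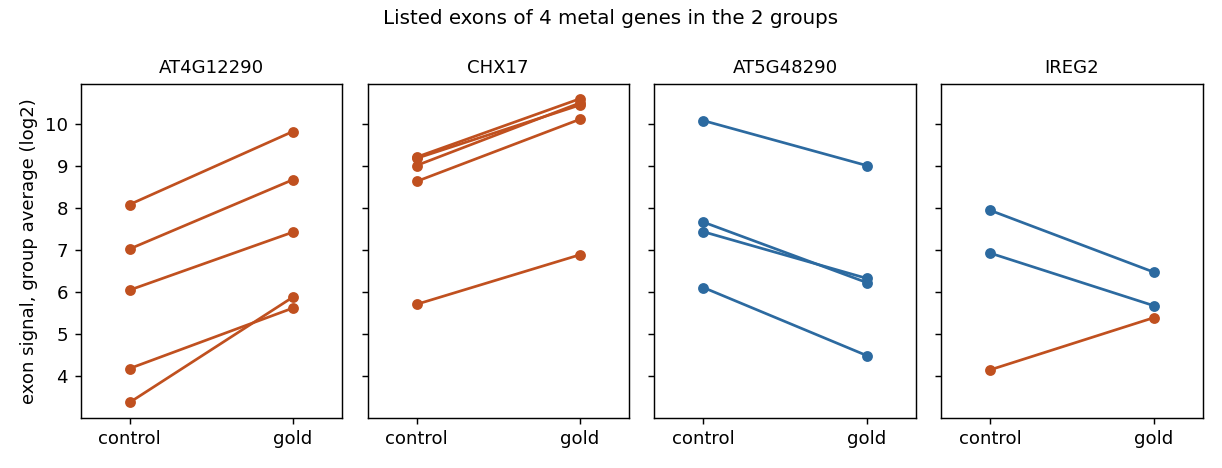
Group average signals (log2) of each listed exon of AT4G12290, CHX17, AT5G48290 and IREG2 in control and gold-treated roots; each line is an exon, orange where higher and blue where lower in gold. Lines run the same way within the first 3 genes, while in IREG2 1 line runs up from 4.15 to 5.39 and the others run down.

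NAS1 makes nicotianamine, the ligand that keeps iron, zinc and copper mobile in the plant. At the gene level it had 8.91 in control roots and 7.85 after gold, 2.08-fold lower, and its listed exon went from 8.47 to 7.29. FER1, a ferritin that stores iron in plastids, was listed through an exon that was 2.03-fold higher in gold-treated roots, from 6.3 to 7.32. No gene described as a metallothionein is in the tables.

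Carriers of other cations were higher in gold-treated roots in 8 of 10 listed exons, 5 of them from CHX17, and in 3 of 4 genes, beside the 54.6% of exons and 49.6% of genes in the whole table. CHX17, a cation/H+ antiporter known from potassium and pH balance in endosomes, had a gene-level signal of 8.48 in control roots and of 9.78 after gold. That is 2.46-fold higher, and all 5 listed exons were higher by 2.27- to 2.81-fold. The exon differences lay within 0.31 on the log2 scale, although the control signals ran from 5.71 to 9.22.

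The organic cation/carnitine transporters did not share a direction. OCT1, the carnitine carrier of the plasma membrane, went from 6.53 to 7.55 at the gene level, 2.03-fold higher, and its exons from 7.89 to 9.18 and from 6.86 to 8.07. OCT5 had an exon that was 2.89-fold higher, from 5.48 to 7.01. In OCT3, both listed exons were lower, from 6.99 to 5.97 and from 6.68 to 5.65, or 2.03- and 2.04-fold.

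The enzymes that hold copper or iron include the largest differences among the metal genes. AT4G12290 is a copper amine oxidase, an enzyme class that oxidizes amines and releases hydrogen peroxide. The gene-level signal went from 5.56 in control roots to 7.27 after gold, 3.27-fold higher. By size it ranked 166 among the 523 genes of the table that were higher in gold. Its 5 listed exons were all higher, by 2.6- to 5.7-fold, and the exon with the largest difference had the lowest control signal, 3.37. That exon reached 5.88 after gold, and another went from 4.18 to 5.62, so both averages of each were under 6. The exons with a brighter average over 6 were 2.6- to 3.34-fold higher. AT1G31670, another gene described as a copper amine oxidase, had an exon that was 2.03-fold higher, from 3.34 to 4.36.

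AT3G46490, described as an iron ion binding oxidoreductase, had the largest difference in the other direction. The gene-level signal went from 6.62 in control roots to 5.16 after gold, 2.75-fold lower, and it ranked 62 among the 277 listed genes that were lower in gold. Its exons were at 7.63 and 7.59 in control roots and at 5.45 and 6.03 in gold-treated roots, 4.53- and 2.95-fold lower. AT3G56350 is described as of the iron/manganese superoxide dismutase family, which does not say which of these metals it holds. Both its listed exons were higher, by 2.5-fold at low signals, from 2.54 to 3.86, and by 2.22-fold, from 5.2 to 6.35. SDH2-3, an iron-sulfur subunit of succinate dehydrogenase known from seeds, was 2.04-fold lower at low signals, 4.49 and 3.46.

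Genes of metal supply were also looked up by locus in 6 lists of known genes, whatever their description. The lists were chosen with earlier results of these data known, so their shares and directions are not independent of the values. Of 80 genes, 16 are in the exon-level table, and 9 of these 16 belong to the 31 metal genes. That table names 9.69% of the protein-coding genes of the RefSeq table. Not all of the RefSeq genes need be on the array, and the difference between the shares was not tested. The 16 divide into 9 with only higher exons, 6 with only lower ones and 1 with both, beside 49.6% with only higher exons over the table, and NAS1 is in the gene-level table. Of the 21 genes of iron uptake and its regulators, 3 had higher and 2 lower exons. Those that are not among the 31 genes were higher. CYP82C4, which hydroxylates the coumarins that roots secrete to mobilize iron, had an exon at 3.06 in control and 5.94 in gold-treated roots. That exon was 7.36-fold higher with both averages under 6, and whether probes shared with relatives added to its signal was not tested. ABCG37, a carrier that exports such coumarins, went from 10.13 to 11.2 in an exon. The exon of F6'H1, the enzyme that starts coumarin synthesis, went from 7.85 to 8.99, but its feature names the polyamine carrier AT3G13620 too, so which of the genes gave the signal is not known. IRT1, the main iron importer of the root, is in neither table.

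Of the 16 genes of zinc supply, 3 are listed, too few to give the group a direction, and each had a lower exon or exons. They are ZIP3, ZIP5 and HMA2, a zinc pump that loads the xylem, whose exon went from 6.61 to 5.13, 2.79-fold lower. Only 1 of the 14 genes of copper supply is listed, FRO4. Of the 12 genes of iron storage and vacuolar iron, FER1 and NRAMP3 had higher exons and IREG2 both. Of the 8 genes of nicotianamine and its transport, NAS1 was lower, and ZIF1, which moves nicotianamine into the vacuole, had an exon that was 2.07-fold higher, from 9.04 to 10.09.

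Metal chelation, the last list, has 9 genes, of which 2 had higher exons and none a lower one. They are the vacuolar pumps ABCC1 and ABCC2, which carry phytochelatins and their metal complexes. In ABCC1 3 exons were 2.1- to 2.48-fold higher, from control signals of 9.58 to 10.6. In ABCC2 3 exons were 2.0- to 3.36-fold higher, and the largest difference was from 6.5 to 8.25. Neither phytochelatin synthase of the list nor any of its metallothioneins is in the tables. Over all lists, the 7 genes that do not belong to the 31 hold 11 listed exons, 10 higher and 1 lower in gold-treated roots. None of the 7 is in the gene-level table, and over all such genes 42.0% of the exons were higher. Of the 10 higher exons, 6 are from ABCC1 and ABCC2. Because the lists were chosen with earlier results of these data known, this split is a description only and was not tested.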

How the data were processed

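Root RNA was hybridised to AraGene-1_0-st arrays, and the authors summarized the probes with RMA per gene and per exon in Expression Console. The deposited log2 signals are bi-weight averages over the 3 arrays of each group, made by the authors in the Transcriptome Analysis Console, which also filtered the tables. The tables' fold changes, p-values and FDR values are the authors' own comparison and were not used. RMA draws the arrays to one distribution, so differences are relative to the array as a whole. Depth is not a property of arrays, and their number limits the precision.

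Groups were taken from the labels. Gold minus control differences of the averages were computed here, and folds from them. No model across genes could be fitted, because only averages were analysed. The transcript cluster ID tied each exon to its gene, and member counts were checked on simulated tables. All 31 loci were found in the TAIR10.1 RefSeq table, which gave symbols; 3 symbols that the tables show as dates (OCT1, OCT3, OCT5) were restored from it. Each member's feature names 1 locus, but probes shared between relatives were not tested. Coordinates and sequences are not reported here. In the lists, FIT, S8H and MTP2 were dropped because the table gives their loci other names.

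Every member may be named, and those with 1 listed exon have values here too; other genes come from the lists. Members and lists were chosen with earlier results of these data known. Python 3.11.15, numpy 2.4.6, pandas 2.3.3 and matplotlib 3.10.9 were used.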

Additional observations from a re-analysis of the deposited data

How the results depend on the processing

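Of 41 alternative counts, 30 stayed within 1.5 times the value reported and 11 did not. Some of the 30 had no room to differ: no metal gene lacks a chromosome, so requiring a chromosome could not change a count. Counting equal measurements once or joining exons and genes by locus also left the counts as they were. A limit of 3-fold left 1 metal gene higher and 0 lower at the gene level, 3 exons higher and 3 lower, and 3 genes listed through exons alone. Words such as zinc and metal in a wider rule, which takes in zinc finger proteins, gave 12 genes higher at the gene level, 83 exons higher and 51 lower, and 52 genes listed through exons alone. The same rule without zinc fingers and zinc ion binding proteins, chosen after seeing the data, gave 47 exons higher and 32 lower. Without cation carriers 2 genes were higher at the gene level, and 19 exons were higher and 27 lower. Leaving out the enzymes that hold a metal gave 19 exons higher and 26 lower. The nearly even split of the exons therefore depends on which genes the words take in. No paired analysis was possible because the tables analysed hold averages of the groups, and single arrays were not analysed here. Leaving out each replicate was not run for the same reason. Many exons lie close to the 2-fold filter, and with 3 arrays in a group a gene that narrowly missed it is not distinguished here from one that did not change.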

Other observations

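Some descriptions lie just outside the words used, and the genes named here were chosen after their values were seen. ZIFL1, a zinc induced facilitator-like protein of the major facilitator superfamily and the neighbour of ZIF1 on chromosome 5, was the most fully listed of them. At the gene level it went from 9.82 in control roots to 11.3 after gold, 2.79-fold higher. All 18 of its listed exons were higher, by 1.22 to 1.92 on the log2 scale, more exons than any of the 31 metal genes had. Its relative ZIFL2, on chromosome 3, had an exon that was 2.3-fold lower, from 7.34 to 6.14. A pair of genes whose description has heavy-metal with a hyphen were listed through an exon each, AT1G30473 at 2.41-fold higher and AT4G08570 at 3.07-fold lower. AT4G35080, described as a high-affinity nickel-transport family protein, was 2.38-fold lower in an exon, from 6.67 to 5.42, and SKS2, a monocopper oxidase-like protein, was 2.23-fold higher in an exon, from 4.42 to 5.58.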
